A study of Homo sapiens with 12 samples.

Results

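AsPC1-R and BxPC3-R are derivatives of the human pancreatic ductal adenocarcinoma lines AsPC1 and BxPC3 that were made resistant to cisplatin, a platinum drug that crosslinks DNA. They were compared with each other here, and the difference was set beside the one between the parental lines. The members are the arrays labelled with either derivative, 3 for AsPC1-R and 3 for BxPC3-R, which is 6 of the 12 arrays in all; the other 6 are 3 of AsPC1 and 3 of BxPC3. AsPC1-R was kept in medium with 1.67 µM cisplatin and BxPC3-R in medium with 0.60 µM, and both spent their last passage without the drug, so all 4 groups were free of it at harvest. All were adherent, subconfluent cultures in RPMI medium with serum. Each derivative is 1 line, so what came with resistance and what came with that particular derivative cannot be told apart, and the maintenance dose cannot be told apart from the line. Nothing in the labels says whether replicates were separate cultures; p-values therefore reflect only the spread among these samples, which may be technical.

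AsPC1 was grown from the ascites of a patient and BxPC3 from a primary tumour. Pancreatic ductal cancers are commonly sorted into a classical type, which expresses gastrointestinal and endodermal genes, and a basal-like or squamous type, which expresses keratins and cornification genes of stratified epithelia. Epithelial cells also differ in how far they switch on inflammatory genes under the transcription factor NF-kB and antiviral genes under interferon. NF-kB drives chemokines and acute-phase proteins, and interferons act through STAT and IRF factors on a large set of antiviral and antigen-presentation genes.

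Levels are the deposited log2 values of 18417 genes, 1 probe set per gene, and a difference is AsPC1-R minus BxPC3-R on that scale, so 1 stands for 2-fold and a positive value is higher in AsPC1-R. Values after a log2 difference in parentheses are its standard error from limma (n = 3 arrays a group), and a gene was called where the Benjamini-Hochberg adjusted p from limma over all genes was under 0.05. The labels were borne out, for the line and not for resistance, by loci that BxPC3 is known to have lost. SMAD4, the shared SMAD of TGF-beta signalling, read 9.78, 9.69 and 9.51 in AsPC1-R against 4.43, 4.75 and 4.72 in BxPC3-R, a difference of 5.02 (0.19). CDKN2A, which encodes the cell-cycle inhibitors p16 and ARF, read 7.76, 7.57 and 7.67 against 5.73, 5.51 and 6.0. MTAP, a methionine-salvage enzyme that lies beside CDKN2A, differed by 2.71 (0.14). The CDKN2A probe set thus averaged 5.75 in BxPC3-R and 6.22 in BxPC3, cells without the gene, so a difference whose lower side lies near such levels is uncertain in size.

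Array medians ranged from 6.48 to 6.65, no 2 arrays were identical, and Pearson's r between arrays of a group, across genes, ranged from 0.9908 to 0.9972. Line-specific genes, chosen after the values were seen, were read on each array. They were picked by their difference on the resistant arrays, so their even medians there are no check of those arrays. The 50 genes most in excess in BxPC3-R had array medians of 4.84 to 5.01 in AsPC1-R, and the 50 most in excess in AsPC1-R had array medians of 5.35 to 5.44 in BxPC3-R. Among the parental arrays, BxPC3 replicate 2 read highest of the 3 BxPC3 arrays for 49 of the latter 50 genes, with a median of 6.90 against 5.88 and 5.74. For CDH17 that array gave 9.0, where replicates 1 and 3 gave 4.99 and 4.47. That array enters the parental difference, and its part in the results was not tested beyond leaving it out. Without it 1175 differences were kept, of which 1154 were also kept with it, 345 vanished (337 shared), 322 appeared (298 shared) and 44 turned (43 shared), in the classes defined next.

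The resistant lines stayed widely different. Of 18417 genes, 7971 were called between AsPC1-R and BxPC3-R (43.3%), 3920 higher in AsPC1-R (21.3%) and 4051 higher in BxPC3-R (22%). The 3 arrays of one line all read above the 3 of the other for 10198 genes (55.4%). A difference of at least 2-fold was called for 1922 genes (10.4%), 947 higher in AsPC1-R (5.14%) and 975 higher in BxPC3-R (5.29%). Between the parental lines 9316 genes were called (50.6%), 27.7% of all genes higher in AsPC1 and 22.9% higher in BxPC3. Of these 2040 were at least 2-fold different (11.1%), with 746 higher in AsPC1 (4.05%) and 1294 higher in BxPC3 (7.03%). The resistant and the parental comparison share no array. Counts of list members given below are to be set beside the shares of all genes given here.

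The change of the line difference, resistant minus parental, was tested in the same fit and called for 4685 genes (25.4%). Of these 55.4% moved toward AsPC1-R, and 44.4% did so with each array centred on its median, so the split over all genes depends on the centring. The median change over all genes was -0.07, from a median difference of 0.109 between the parental lines to 0.031 between the resistant lines. Of the 1157 genes whose line difference changed at least 2-fold (6.28%), 832 moved toward AsPC1-R (4.52%) and 325 toward BxPC3-R (1.76%).

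Every gene at least 2-fold different in either pair, 2742 in all, was placed in a class. A difference was kept where it was called at 2-fold or more with the same sign in both pairs, and 1175 were (6.38% of all genes), which is 57.6% of the parental and 61.1% of the resistant differences of that size. Of these, 498 were higher in the AsPC1 type and 677 in the BxPC3 type. The change was not called for 636 of them, while 211 were wider and 328 narrower between the resistant lines. A difference vanished where a 2-fold parental difference fell under 0.5 in size and the change was called, as for 363 genes (1.97%), 260 of them formerly higher in BxPC3. Vanished thus means small and not absent, since 145 of the 363 were still called between the resistant lines. A difference appeared where the parental difference was under 0.5, the resistant difference reached 2-fold and the change was called, as for 311 genes (1.69%), 195 higher in AsPC1-R and 116 in BxPC3-R. It turned where both differences reached 2-fold with opposite signs, as for 45 genes (0.244%), of which 43 went from higher in BxPC3 to higher in AsPC1-R. The other 848 genes (4.6%) lay in between. With a limit of 0.3 in place of 0.5, 218 differences vanished and 168 appeared.

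**Figure D1:**
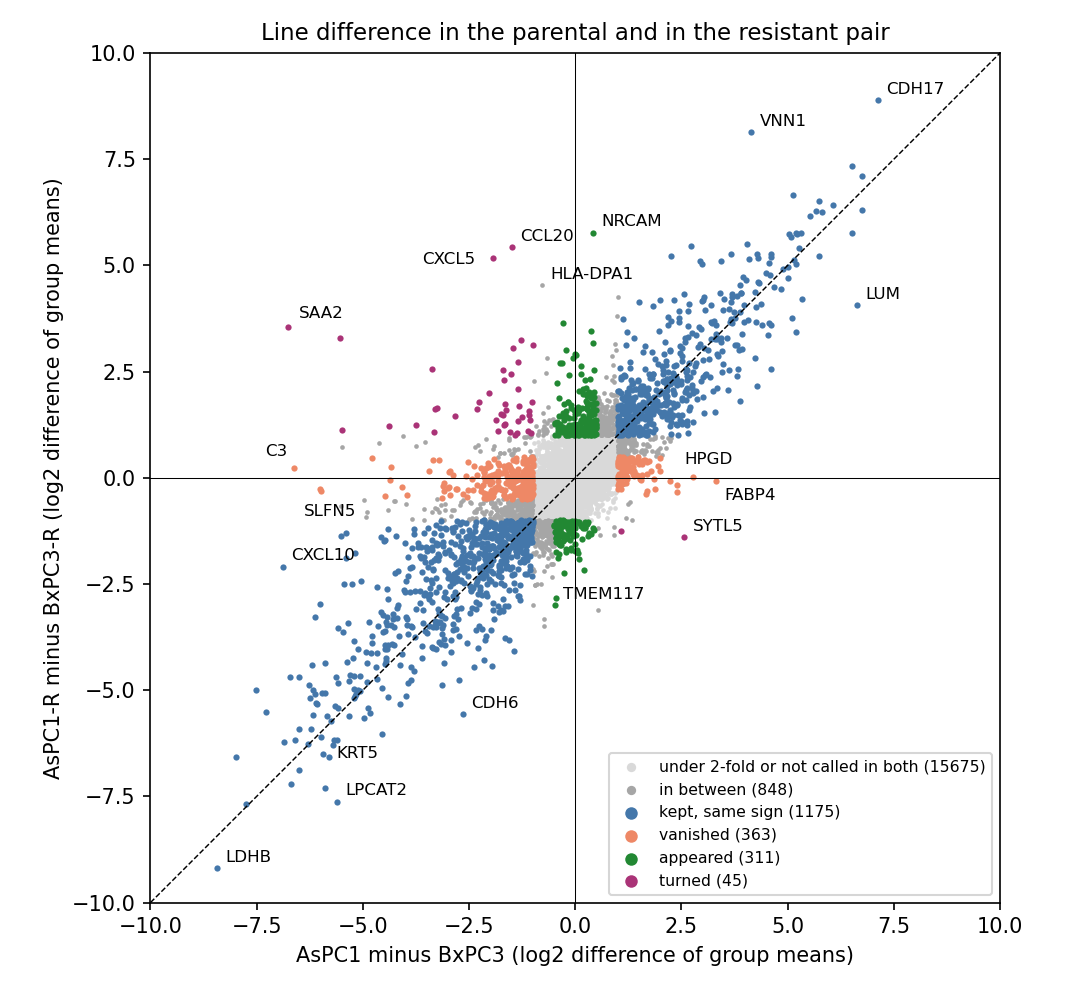
Line difference of each of 18417 genes between the parental lines (x axis, log2) and between the resistant lines (y axis, log2), with colour for the class of the gene and a dashed line where both are equal. Kept differences (1175) lie along the dashed line, vanished ones (363) near the horizontal axis, appeared ones (311) near the vertical axis, and most of the 45 turned ones in the upper left, among them SAA2, CXCL5 and CCL20.

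The differences that remained on the AsPC1-R side were led by intestinal and classical-type genes. CDH17, the liver-intestine cadherin, read 13.08, 13.09 and 13.11 in AsPC1-R and 4.48, 3.88 and 4.26 in BxPC3-R, a difference of 8.89 (0.79; limma adjusted p 4.1e-07). The parental difference was 7.12 (0.79), and 8.55 without BxPC3 replicate 2. LYZ, the antibacterial enzyme lysozyme of Paneth cells and leukocytes, read 12.17, 12.22 and 12.05 against 4.83, 4.85 and 4.71. Groups were far apart for both genes, with every AsPC1-R array above every BxPC3-R array. The lack of overlap by itself is common, since 55.4% of all genes had none. MUC17, a membrane mucin of the gut surface, read 11.87, 11.74 and 11.97 in AsPC1-R and 5.01, 4.78 and 4.47 in BxPC3-R (difference 7.11, SE 0.36; parental 6.74). LGR5, the R-spondin receptor of intestinal stem cells, read 11.14, 10.95 and 11.20 against 4.60, 4.88 and 4.89 (6.31, SE 0.33; parental 6.75). Without BxPC3 replicate 2 the LGR5 difference was called narrower than the parental 7.32, by a change of -1.01. For MUC17 the parental difference without that array was 7.36, and the change of -0.25 was not called.

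The brush-border list, genes of the absorptive intestinal surface, kept this order as a whole. Of its 21 measured genes, 16 were called higher in AsPC1-R and 0 in BxPC3-R, where 21.3% and 22% of all genes were called in those directions, and all 16 at least 2-fold. At an unadjusted p under 0.05 limma gave 1 gene higher in BxPC3-R. The median difference was 3.05, against 2.88 between the parental lines and 0.031 over all genes. DPP4, a peptidase of the brush border, read 12.92, 12.81 and 12.92 against 7.09, 7.06 and 7.19. ANPEP, the aminopeptidase N of the same membrane, was wider between the resistant lines, at 4.33 (0.10) from 3.69. TM4SF4, a tetraspan membrane protein of intestine and liver, differed by 5.22 (0.24) from a parental 5.74, a change that was not called. Without BxPC3 replicate 2 its parental difference was 6.04 and the change of -0.83 was called.

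The classical-type list itself was mixed. Of 25 measured genes 13 were higher in AsPC1-R and 6 in BxPC3-R, with a median of 0.53 (0.82 between the parental lines). LGALS4, a lectin of gut epithelium, read 12.15, 12.12 and 12.20 in AsPC1-R against 6.77, 7.06 and 6.41. ANXA10, an annexin of gastric-type epithelium that belongs to the same list, lay on the other side, at 4.83, 5.17 and 5.0 in AsPC1-R and 10.61, 10.61 and 10.78 in BxPC3-R. Among endodermal transcription factors 6 of 19 were higher in AsPC1-R and 4 in BxPC3-R, which is near the 21.3% and 22% of all genes. NR5A2, a nuclear receptor of pancreas and gut, was higher in AsPC1-R by 3.64 (0.14), narrower than the parental 4.57. HNF4G, the intestinal relative of HNF4A, differed by 2.30 (0.10). SOX2, a factor of foregut and stratified epithelium, was higher in BxPC3-R (-2.78, SE 0.25; parental -1.34).

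Some kept AsPC1-R genes are known from mesenchyme and matrix. ZEB1, a repressor of epithelial genes, read 10.28, 10.14 and 10.10 in AsPC1-R and 5.72, 5.78 and 6.0 in BxPC3-R (4.34, SE 0.16; parental 3.89). VCAN, the matrix proteoglycan versican, read 12.78, 12.60 and 12.74 against 6.01, 6.20 and 6.38. The 2 lines did not overlap for either gene, as for 55.4% of all genes. S100A4, a calcium-binding protein of motile cells, differed by 4.67 (0.19), MMP7, an epithelial matrix protease, by 4.07 (0.11), and LAMA4, a laminin chain of basement membranes, by 5.27 (0.13). The mesenchymal list as a whole leaned the other way, with 6 of 29 genes higher in AsPC1-R, 13 in BxPC3-R and a median of -0.36. Over all genes 21.3% were higher in AsPC1-R and 22% in BxPC3-R. Members of the list higher in BxPC3-R included CALD1, an actin-binding protein of contractile cells, at 10.83 to 11.05 against 5.07 to 5.70.

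On the BxPC3-R side the largest kept difference was LDHB, the heart-type lactate dehydrogenase subunit. It read 4.41, 3.94 and 3.98 in AsPC1-R and 13.27, 13.28 and 13.31 in BxPC3-R, a difference of -9.18 (0.14), wider than the parental -8.44. LCP1, an actin-bundling protein of leukocytes that carcinomas can also express, read 5.66, 4.80 and 4.76 against 12.75, 12.72 and 12.76, and its parental difference of -7.76 was nearly the same. PTGS2, the inducible cyclooxygenase, read 4.64, 4.87 and 4.76 against 11.01, 10.90 and 11.03. FST, the activin inhibitor follistatin, differed by -6.88 (0.16). For all 4 genes the AsPC1-R arrays read at levels close to those of deleted genes in BxPC3-R, so the sizes are uncertain.

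Genes of stratified and polarised epithelium also stayed on that side. KRT5, the basal-cell keratin, read 6.15, 5.82 and 5.67 in AsPC1-R and 12.42, 12.30 and 12.43 in BxPC3-R (-6.5, SE 0.13; limma adjusted p 1.2e-13), wider than the parental -5.93 by a change that lost its call in some alternatives. KRT7, a ductal keratin, differed by -4.41 (0.11), and KRT13, a keratin of internal stratified epithelia, by -4.36 (0.12), wider than its parental -3.09. GRHL2, a transcription factor that maintains epithelial junctions, read 4.58, 5.10 and 4.73 against 10.97, 10.96 and 10.96. RAB25, a GTPase of apical recycling, read 5.03, 5.06 and 4.98 against 10.45, 10.32 and 10.42. Neither gene overlapped between the lines, as for 55.4% of all genes. The change from the parental difference was not called for either gene with all arrays, although some alternatives called it. In the squamous list 4 of 28 genes were higher in AsPC1-R and 16 in BxPC3-R, with a median of -0.91 (parental -1.28). In the basal-like list it was 3 and 11 of 18, with a median of -1.15 (parental -1.27). Over all genes 21.3% were higher in AsPC1-R and 22% in BxPC3-R. Members with large differences were SERPINB13, an inhibitor of cysteine cathepsins in keratinocytes, at -5.19 (0.15), SPRR1B, a cornified-envelope precursor, at -4.74 (0.14), and S100A2, a calcium-binding protein of basal cells, at -4.79 (0.31).

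**Figure D2:**
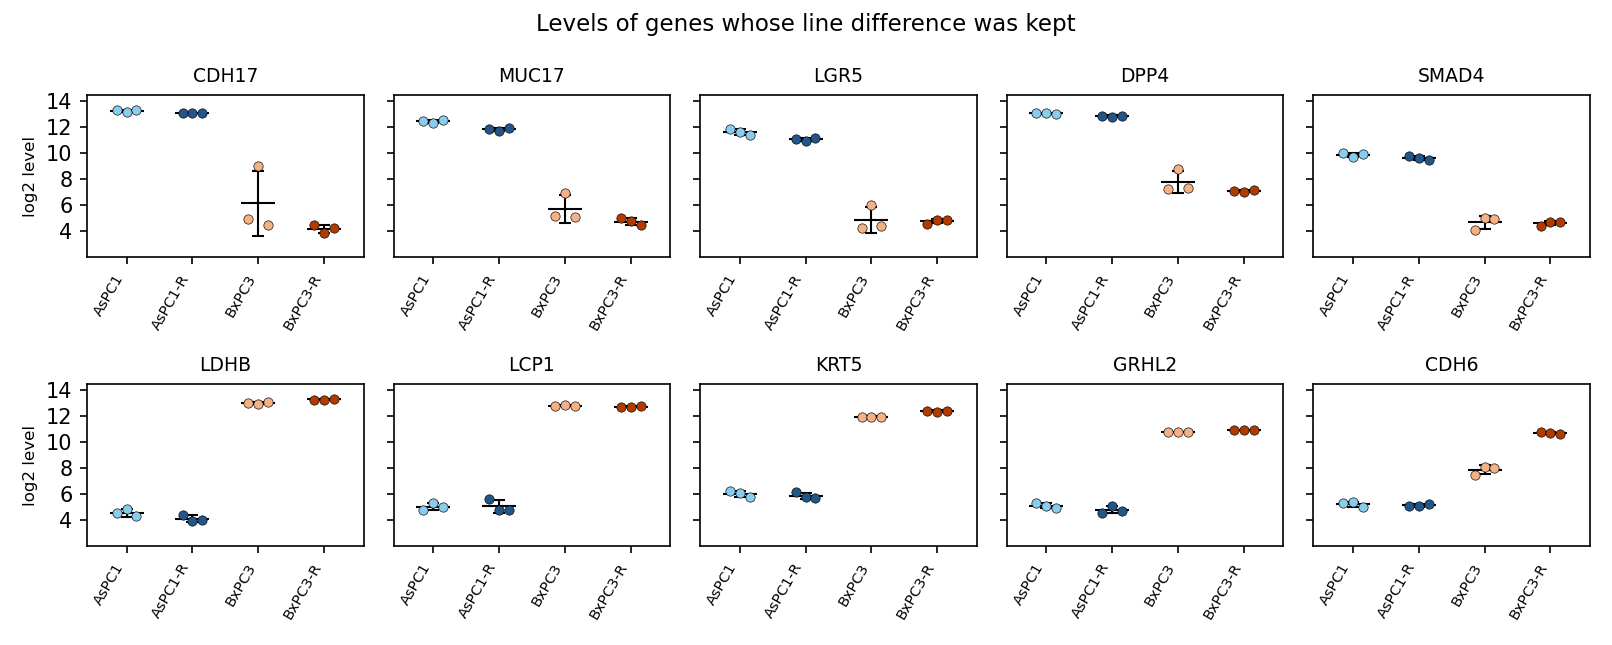
Log2 level on each array (points; 3 per group) of genes whose line difference was kept, with the group mean and SD as bar and whiskers. For the first 5 genes both AsPC1 groups lie above both BxPC3 groups, and for the last 5 the order is the reverse; BxPC3 replicate 2 stands above the other BxPC3 arrays for CDH17 (9.0), MUC17 and LGR5, and CDH6 is higher in BxPC3-R than in BxPC3.

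Of the 211 kept differences that were wider between the resistant lines, 114 were higher in AsPC1-R and 97 in BxPC3-R. For the AsPC1-R genes named next, it was mainly the BxPC3-R level that had moved. VNN1, the pantetheinase vanin-1, read 13.09, 13.02 and 13.01 in AsPC1-R and 4.71, 5.04 and 4.96 in BxPC3-R. Its difference of 8.13 (0.20) compares with 4.15 between the parental lines, where BxPC3 read 8.21, 9.23 and 8.26 and AsPC1 12.73, 12.74 and 12.67. GCNT3, a glycosyltransferase that branches mucin O-glycans, differed by 5.46 (0.12) from a parental 2.73, and MGAT4A, which branches N-glycans, by 5.23 (0.10) from 2.26. AsPC1-R lay above AsPC1 by 0.32, 0.21 and 0.71 for VNN1, GCNT3 and MGAT4A, whereas BxPC3-R stood at -3.66, -2.52 and -2.26 against BxPC3.

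Growth in the other direction was led by CDH6, EYA1 and LPCAT2. CDH6, a cadherin of developing kidney and of carcinomas, read 5.11, 5.06 and 5.28 in AsPC1-R and 10.80, 10.68 and 10.65 in BxPC3-R, where BxPC3 read 7.48, 8.13 and 8.05 (difference -5.56, SE 0.15; parental -2.65). EYA1, a transcriptional cofactor of organ development, differed by -4.08 (0.23) from -1.45. LPCAT2, an enzyme of platelet-activating factor synthesis, read 12.01, 11.93 and 11.98 in BxPC3-R and 4.30, 4.44 and 4.31 in AsPC1-R (-7.62, SE 0.07; parental -5.61).

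Several of the largest turned differences were in inflammatory genes. SAA2, an acute-phase serum amyloid, read 11.57, 11.86 and 11.76 in AsPC1-R and 8.11, 8.25 and 8.15 in BxPC3-R, a difference of 3.56 (0.17; limma adjusted p 6.0e-10). Between the parental lines the order was the opposite, with 5.22, 5.94 and 5.05 in AsPC1 and 12.20, 12.10 and 12.18 in BxPC3 (-6.75). The line difference had thus moved by 10.32 (0.24). The other SAA2 probe set gave 2.43 and -2.92. SAA1 differed by 3.30 (0.25) from -5.54, and the genes are near-identical copies whose signals may be shared. CXCL5, a neutrophil chemokine, read 12.28, 12.33 and 12.09 against 7.03, 7.10 and 7.02 (5.18, SE 0.10; parental -1.94). CCL20, a chemokine for dendritic and Th17 cells, read 10.31, 10.53 and 10.13 against 4.79, 4.78 and 5.10 (5.43, SE 0.13; parental -1.49).

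In these genes both derivatives differed from their parents, in opposite directions. For SAA2, AsPC1-R lay 6.33 above AsPC1 and BxPC3-R 3.99 below BxPC3 on the log2 scale; for CXCL5 the shifts were 4.07 and -3.04, and for CCL20 2.66 and -4.27. DUOX2, an epithelial oxidase that makes hydrogen peroxide, read 9.13, 8.92 and 9.07 in AsPC1-R and 6.48, 6.51 and 6.47 in BxPC3-R (2.55, SE 0.08; parental -3.36). CFB, complement factor B, differed by 2.44 (0.12) from -1.52. CA2, a carbonic anhydrase of ductal cells, differed by 2.53 (0.16) from -1.70, and APOBEC3G, an antiviral cytidine deaminase, by 1.79 (0.17) from -2.26. Outside defence functions, FRAS1, a basement-membrane protein, turned from -2.03 to 1.99 (0.14) and VSNL1, a neuronal calcium sensor, from -1.69 to 2.30 (0.16).

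Of the 34 measured NF-kB cytokine and acute-phase genes, 22 were called higher in AsPC1-R and 4 in BxPC3-R, with a median of 0.42. Between the parental lines 1 was higher in AsPC1 and 25 in BxPC3, with a median of -1.37. Over all genes 21.3% were higher in AsPC1-R and 22% in BxPC3-R, and 27.7% in AsPC1 and 22.9% in BxPC3. The change of the line difference was called upward for 28 of 34 and downward for 0, against 14.1% and 11.3% of all genes, and 0 were downward at an unadjusted p under 0.05 in limma. By class, 8 members turned, 6 vanished and 0 appeared. PTGS2 stayed with BxPC3-R, narrower by 0.65.

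Only 2 genes turned the other way. SYTL5, a synaptotagmin-like protein that binds RAB27 on secretory vesicles, read 7.98, 7.98 and 8.04 in AsPC1-R and 9.32, 9.38 and 9.47 in BxPC3-R (-1.39, SE 0.08), against 9.54, 9.56 and 9.64 in AsPC1 and 6.93, 6.97 and 7.14 in BxPC3 (2.57). PKIB, an inhibitor of protein kinase A, went from 1.07 to -1.25 (0.19).

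Promoter windows were read for these and the interferon genes, because many members moved together. Windows run from 250 bases before to 50 after the annotated start (RefSeq, GRCh38.p14). The NF-kB motif searched was GGGA, any base, then TTTCC, on both strands, and it was in 0.558% of 35116 windows. It was in a window of 12 of 27 cytokine-list genes with a window (44.4%), against 0.678% of all 27305 genes with one. The interferon-response motif was TTTC, any 2 bases, then TTTC, on both strands, found in 3.57% of windows. It was in a window of 25 of 36 interferon-list genes (69.4%), against 4.38% of all genes with one. These lists hold genes known as targets of those factors, and a match is a description of the letters, not a site. Only these patterns were searched, so a window without a match can still hold a site of another form. Capitals mark the matches. CXCL5 (chr4:73998628-73998927, minus strand) holds an NF-kB match, CCL20 (chr2:227813592-227813891, plus strand) holds none in this window, and IFI27 (chr14:94110486-94110785, plus strand) and CXCL10 (chr4:76023448-76023747, minus strand) hold interferon-response matches.
CXCL5: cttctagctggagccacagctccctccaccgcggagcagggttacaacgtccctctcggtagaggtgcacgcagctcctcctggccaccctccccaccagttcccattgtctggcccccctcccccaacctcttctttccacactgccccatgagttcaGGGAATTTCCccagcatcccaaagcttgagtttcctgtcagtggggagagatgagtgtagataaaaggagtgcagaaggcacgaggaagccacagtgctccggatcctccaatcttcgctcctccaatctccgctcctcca
CCL20: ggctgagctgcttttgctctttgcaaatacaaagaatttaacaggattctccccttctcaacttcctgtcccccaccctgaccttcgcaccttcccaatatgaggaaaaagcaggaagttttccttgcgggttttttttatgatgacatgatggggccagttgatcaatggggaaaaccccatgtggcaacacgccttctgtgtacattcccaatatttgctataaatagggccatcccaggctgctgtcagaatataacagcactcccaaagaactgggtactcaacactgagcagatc
IFI27: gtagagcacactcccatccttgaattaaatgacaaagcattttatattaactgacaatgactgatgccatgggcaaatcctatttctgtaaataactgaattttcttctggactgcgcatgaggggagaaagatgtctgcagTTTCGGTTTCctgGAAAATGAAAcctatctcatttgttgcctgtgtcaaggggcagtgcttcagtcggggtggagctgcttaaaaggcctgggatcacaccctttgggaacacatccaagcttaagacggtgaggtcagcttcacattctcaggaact
CXCL10: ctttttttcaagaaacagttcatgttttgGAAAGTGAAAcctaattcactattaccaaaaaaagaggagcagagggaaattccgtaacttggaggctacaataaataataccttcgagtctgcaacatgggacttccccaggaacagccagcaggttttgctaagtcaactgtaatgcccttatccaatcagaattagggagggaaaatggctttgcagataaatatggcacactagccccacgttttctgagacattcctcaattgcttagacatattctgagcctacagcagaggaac

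Vanished differences were led by genes that had been far higher in BxPC3. C3, the central complement component, read 9.75, 9.47 and 9.64 in AsPC1-R and 9.49, 9.37 and 9.33 in BxPC3-R, a difference of 0.22 (0.14; limma adjusted p 0.24), with overlapping groups. In the parental lines it had read 5.80, 6.25 and 5.55 in AsPC1 and 12.56, 12.51 and 12.41 in BxPC3 (-6.62). SLC6A14, an amino acid transporter induced in carcinomas, read 7.54, 7.34 and 7.31 against 7.58, 7.78 and 7.62, with a parental difference of -6.0. For both genes the AsPC1-R level was above AsPC1 and the BxPC3-R level below BxPC3, by 3.75 and -3.09 for C3.

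For SLFN5, SLC39A8, ZC3H12C and AKR1B10 the AsPC1-R side moved most. SLFN5, an interferon-inducible Schlafen gene, read 11.24, 11.09 and 11.15 in AsPC1-R, 6.01, 6.56 and 6.36 in AsPC1, and 11.43, 11.48 and 11.52 in BxPC3-R. The remaining difference of -0.31 (0.12; limma adjusted p 0.039) was called but lost its call in some alternatives. SLC39A8, a zinc and manganese importer, read 10.91, 10.90 and 10.91 in AsPC1-R and 11.15, 11.14 and 11.09 in BxPC3-R, from a parental difference of -4.09. ZC3H12C, an RNase of the regnase family that trims inflammatory mRNAs, ended at 0.46 (0.10) from -4.78. AKR1B10, an aldo-keto reductase that NRF2 induces, read 8.29, 8.65 and 8.01 against 7.86, 8.01 and 8.32, groups that overlapped, from a parental difference of -4.34. For IDO1, the tryptophan-degrading enzyme that interferon-gamma induces, the BxPC3-R side moved most, by -2.84 from BxPC3 against 1.48 from AsPC1 to AsPC1-R. It read 5.99, 6.27 and 5.84 in AsPC1-R against 6.13, 5.95 and 6.14, from a parental difference of -4.37.

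The 103 vanished differences that had been higher in AsPC1 were smaller, with a parental median of 1.20 against -1.39 for the 260 of the other side. HPGD, which inactivates prostaglandins, read 8.97, 9.06 and 8.75 in AsPC1-R and 8.71, 8.98 and 9.01 in BxPC3-R, from 10.45, 10.37 and 10.14 in AsPC1 and 7.65, 7.49 and 7.51 in BxPC3. The resistant lines overlapped, while each stood between the parental levels. FABP4, a fatty-acid carrier, read 3.15, 2.69 and 3.07 against 2.80, 3.44 and 2.92 and was 3.32 higher in AsPC1 than in BxPC3. ERBB3, a receptor for neuregulins, ended at 0.47 (0.09) from 1.99, and the xenobiotic oxidase CYP2B6 at -0.18 (0.16) from 2.39. NRG1, which encodes a neuregulin, remained higher in BxPC3-R, with a difference of -5.06 (0.18) on its brightest probe set and -3.33 on the other.

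**Figure D3:**
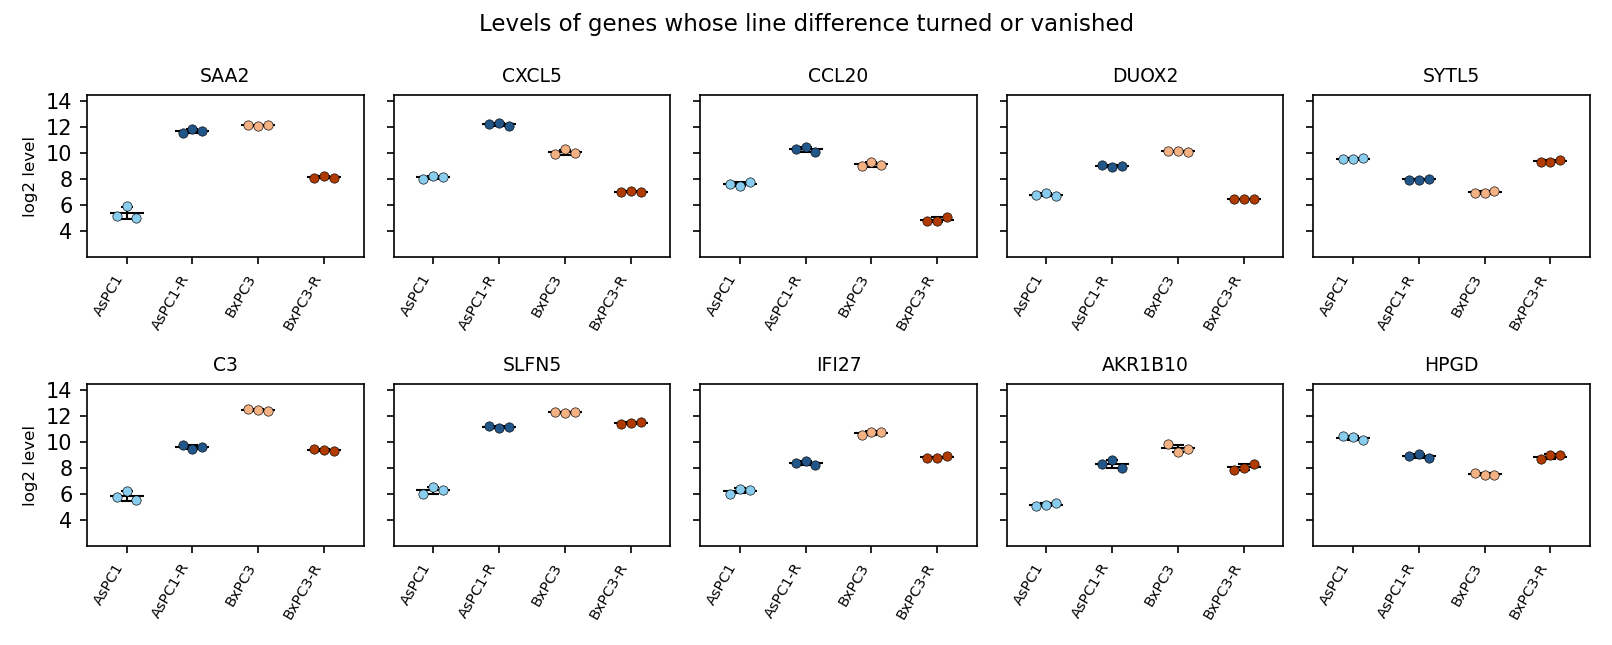
Log2 level on each array (points; 3 per group) of genes whose line difference turned (upper panels) or vanished (lower panels), with group mean and SD. For SAA2, CXCL5, CCL20 and DUOX2 AsPC1-R lies above BxPC3-R while AsPC1 lies below BxPC3; SYTL5 shows the opposite order. In the lower panels the derivatives read alike to within 0.5 although the parental lines differ by at least 2.77.

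Most interferon-stimulated genes had been higher in BxPC3, and that excess shrank between the derivatives. Of 46 measured genes, 11 were higher in AsPC1-R, 21 in BxPC3-R and the median difference was -0.23. Between the parental lines 3 were higher in AsPC1 and 42 in BxPC3, with a median of -1.98. The change was called upward for 42 of 46 and downward for 0, also at an unadjusted p under 0.05 in limma. Over all genes 21.3% were higher in AsPC1-R and 22% in BxPC3-R, and the change was called upward for 14.1% and downward for 11.3%. By class 15 vanished, 11 were kept, 1 appeared and 0 turned.

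Its kept members were mostly narrower. IFI44L, an interferon-induced antiviral gene, read 7.02, 6.69 and 6.55 in AsPC1-R and 11.75, 11.77 and 11.73 in BxPC3-R, so that -5.0 (0.15) remained of -7.51. CXCL10, a chemokine for T cells, read 8.01, 7.90 and 7.13 against 9.60, 9.81 and 9.90, which left -2.09 (0.20) of -6.87. CXCL11, a chemokine for the same receptor, left -1.76 (0.17) of -5.19. MX2, an antiviral GTPase, left -4.24 (0.09) of -5.22, and TRIM22, an antiviral ubiquitin ligase, -2.42 (0.14) of -5.05. IFI27, a mitochondrial interferon-induced protein, vanished, at 8.39, 8.57 and 8.22 against 8.78, 8.80 and 8.90. In each of these BxPC3-R still read above every AsPC1-R array, where 55.4% of all genes had no overlap in 1 direction or the other.

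GBP2, an interferon-gamma induced GTPase, was the list's appeared gene. It read 9.39, 9.35 and 9.19 in AsPC1-R and 6.86, 7.02 and 7.07 in BxPC3-R (2.33, SE 0.12), and 9.19, 9.32 and 9.27 in AsPC1 and 9.13, 8.97 and 8.63 in BxPC3. The low group was BxPC3-R alone. On its other probe set the parental difference was 0.64, past the limit of 0.5. SLFN11, a Schlafen gene known for sensitising cells to DNA-damaging drugs, was low in AsPC1-R, at 4.67, 4.62 and 4.59, and read 6.54, 6.65 and 7.13 in BxPC3-R (-2.15, SE 0.14; parental -3.35).

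Large narrowing was not restricted to interferon genes. SCEL, a precursor of the cornified envelope, read 9.05, 8.98 and 8.80 in AsPC1-R and 10.21, 10.33 and 10.39 in BxPC3-R, which left -1.37 (0.12) of -5.51. FSTL1, a secreted follistatin-like protein, left -1.30 (0.13) of -5.40, and MID1, a microtubule-bound ubiquitin ligase, -1.90 (0.13) of -5.40.

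Most measured antigen-presentation genes were higher in AsPC1-R. Of 9 measured MHC class II genes, 8 were higher in AsPC1-R and 0 in BxPC3-R, with a median of 1.09 against 0.20 between the parental lines, where 3 were higher and 1 lower. Over all genes 21.3% were higher in AsPC1-R and 22% in BxPC3-R, and 27.7% in AsPC1 and 22.9% in BxPC3. HLA-DPA1, a class II alpha chain, read 9.68, 9.88 and 9.92 in AsPC1-R and 5.38, 5.28 and 5.21 in BxPC3-R (4.54, SE 0.10), from a parental -0.79. HLA-DMA, which loads peptides onto class II, differed by 2.72 (0.17) from 1.28. HLA-DPB1, the matching beta chain, appeared, at 6.52, 7.37 and 7.28 against 5.24, 4.88 and 4.96, with 1.19 to 2.03 over its 3 probe sets. HLA genes are similar in sequence, and the split of signal between them is uncertain.

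Of 10 class I presentation genes 6 were higher in AsPC1-R and 1 in BxPC3-R, and between the parental lines 0 and 8. PSMB9, an immunoproteasome subunit, turned, at 8.51, 8.79 and 8.65 against 7.12, 7.38 and 7.34 (1.37, SE 0.17; parental -1.06). ERAP2, a peptidase that trims class I peptides, remained higher in BxPC3-R (-3.49, SE 0.14; parental -4.65). In the complement list 6 of 13 were higher in AsPC1-R and 3 in BxPC3-R, from 3 and 7 between the parental lines. The shares of all genes were 21.3% and 22% between the resistant lines and 27.7% and 22.9% between the parental lines.

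Among the differences that appeared, NRCAM was the largest. This neural cell-adhesion molecule read 10.37, 10.22 and 10.28 in AsPC1-R and 4.79, 4.47 and 4.30 in BxPC3-R (5.77, SE 0.14; limma adjusted p 4.8e-13). The parental lines had read 7.0, 7.18 and 7.24 and 6.5, 6.99 and 6.67 (0.42), so the derivatives stood on either side of them. PDZK1IP1, a small membrane protein of carcinomas, read 10.24, 10.56 and 10.49 against 7.08, 6.57 and 6.68. PLAT, the tissue plasminogen activator, read 11.52, 11.48 and 11.52 against 8.05, 8.11 and 8.0 (3.45, SE 0.11; parental 0.37). In both, too, AsPC1-R lay above and BxPC3-R below the range of the parental arrays.

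Other genes appeared mainly through AsPC1-R. C4BPA, an inhibitor of complement, read 7.56, 7.57 and 7.40 in AsPC1-R, 4.45, 4.26 and 4.29 in BxPC3-R, and 4.26 to 4.87 on the parental arrays. IL20RB, a receptor chain for interleukins of the IL-10 family, read 9.63, 9.59 and 9.58 against 6.74, 6.61 and 6.73, and MAP2K6, a kinase that activates p38, 8.65, 8.65 and 8.58 against 5.50, 5.51 and 5.83. TMOD1, an actin-capping protein, differed by 2.83 (0.17) and GRK3, a kinase of G-protein coupled receptors, by 2.88 (0.13).

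Among regulators of apoptosis, CFLAR and CASP10 led. CFLAR, which encodes the caspase-8 inhibitor c-FLIP, read 10.07, 10.15 and 10.12 in AsPC1-R and 7.46, 7.56 and 7.68 in BxPC3-R (2.55, SE 0.09; parental 0.45). Its other probe set gave 2.40 with a parental difference of 1.54, so there the difference was present before. CASP10, a death-receptor caspase, read 8.44, 8.27 and 8.37 against 6.65, 6.54 and 6.88 (1.67, SE 0.11; parental 0.07). Of 28 apoptosis regulators measured, 14 were higher in AsPC1-R and 3 in BxPC3-R (parental 7 and 9). The shares of all genes were 21.3% and 22% (parental 27.7% and 22.9%). CFI, complement factor I, differed by 1.72 (0.13) from -0.11.

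MIR21, the locus of a microRNA abundant in carcinomas, was named after its values were seen. It read 7.31, 7.31 and 7.92 in AsPC1-R and 5.50, 5.85 and 5.86 in BxPC3-R (1.78, SE 0.18), with a parental difference of -0.18. The probe set reads transcripts of the locus, and the mature form was not measured. The mature strand is shown because it is the product of that locus, with its seed, bases 2 to 8, in capitals (RefSeq, GRCh38.p14, chr17:59841273-59841294, plus strand).
hsa-miR-21-5p: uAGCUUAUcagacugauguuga

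Appeared differences higher in BxPC3-R were smaller, with a median of -1.19. TMEM117, a multipass membrane protein, read 6.39, 6.45 and 6.42 in AsPC1-R and 9.38, 9.44 and 9.44 in BxPC3-R (-3.0, SE 0.08), and 7.90 to 8.53 on the parental arrays. RERG, a RAS-like growth inhibitor, read 5.25, 5.31 and 4.90 against 7.71, 8.07 and 8.18, and MBNL3, a splicing regulator, 8.04, 7.96 and 8.10 against 9.90, 9.79 and 9.72. All 3 genes separated the resistant lines with no overlap, as did 55.4% of all genes.

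Clustered histone genes stood out on this side in a count chosen after the values were seen. Of 60 measured by symbol, 33 were higher in BxPC3-R and 7 in AsPC1-R, with a median of -0.54, against 16 in BxPC3, 19 in AsPC1 and 0.01 between the parental lines. Over all genes 22% were higher in BxPC3-R and 21.3% in AsPC1-R, and 22.9% in BxPC3 and 27.7% in AsPC1. The 13 histone genes that appeared were all higher in BxPC3-R, as were 116 of all 311 genes that appeared. H1-5, a linker histone, read 7.55, 7.90 and 7.65 in AsPC1-R and 9.53, 9.67 and 9.62 in BxPC3-R (-1.90, SE 0.12; parental 0.08), and H2BC14, a core histone, differed by -2.23 (0.17) from -0.26. Histone genes of 1 type are near-identical in sequence and can share signal.

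**Figure D4:**
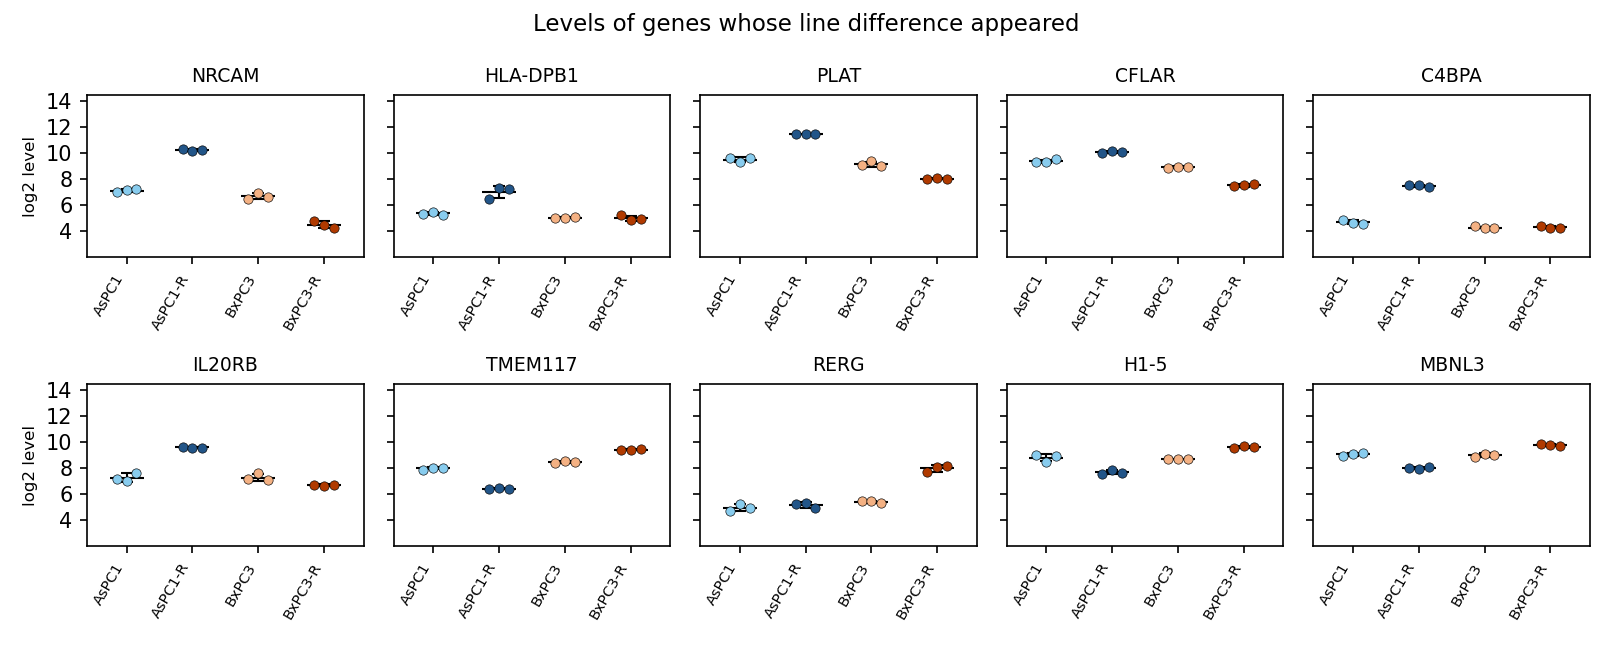
Log2 level on each array (points; 3 per group) of genes whose line difference appeared, with group mean and SD. In the first 6 panels (NRCAM to IL20RB) AsPC1-R reads above BxPC3-R and in the last 4 (TMEM117 to MBNL3) below it. The parental group means differ by under 0.5 with all arrays, and by 0.56 for NRCAM without BxPC3 replicate 2.

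Proliferation genes leaned to BxPC3-R. Of 32 mitosis genes 21 were higher in BxPC3-R and 1 in AsPC1-R, with a median of -0.37, whereas between the parental lines 12 were higher in AsPC1 and 5 in BxPC3, with a median of 0.18. The change was called downward for 20 and upward for 0 (1 at an unadjusted p under 0.05 in limma). Over all genes 22% were higher in BxPC3-R and 21.3% in AsPC1-R, and the change was called downward for 11.3% and upward for 14.1%. DLGAP5, a spindle protein, read 10.19, 10.25 and 10.08 against 11.34, 11.31 and 11.30 (-1.14, SE 0.08; parental -0.46), and CDC20, an activator of the anaphase-promoting complex, differed by -0.95 (0.10). Among 36 replication genes 30 were higher in BxPC3-R and 1 in AsPC1-R, with a median of -0.57 (parental 20 and 6, -0.32). POLA1, the catalytic subunit of DNA polymerase alpha, read 9.88, 9.74 and 9.88 against 11.15, 11.10 and 11.21. These differences were mostly under 2-fold, with 1 mitosis and 5 replication genes past it, and growth rate or confluence was not measured, so its part was not tested.

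Genes that handle cisplatin or its damage differed in both directions. Of 16 transport genes 7 were higher in AsPC1-R and 5 in BxPC3-R (6 and 6 with arrays centred on their medians), with a median of 0.15. The shares of all genes in those directions were 21.3% and 22%. Between the parental lines 5 were higher in AsPC1 and 7 in BxPC3, with a median of -0.05, where the shares were 27.7% and 22.9%. The change was called upward for 8 and downward for 0 (7 and 1 after quantile normalization once more), against 14.1% and 11.3% of all genes. ABCC2, an apical export pump for conjugates that include platinum, read 10.80, 10.72 and 11.05 in AsPC1-R and 6.69, 6.51 and 6.62 in BxPC3-R (4.25, SE 0.14). The parental difference was already 3.69, and the change of 0.56 lost its call in some alternatives. ABCC3, a related basolateral pump, differed by 2.37 (0.09) from 0.73, and ABCC4, another relative, by -2.42 (0.10) from -3.40.

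The copper transporters that carry platinum differed little. SLC31A1, the copper importer CTR1, read 10.93, 10.98 and 10.93 against 11.37, 11.40 and 11.49 (-0.47, SE 0.08; parental -0.71). ATP7A, a copper-exporting ATPase, differed by 0.62 (0.10) and ATP7B by 0.55 (0.11), with ATP7B read at 5.79 or lower on every array of the resistant lines. LRRC8A and LRRC8D, subunits of the volume-regulated anion channel, were higher in BxPC3-R, with differences of -1.13 (0.11) and -0.66 (0.09). ABCC1, a pump for glutathione conjugates, did not pass the test (-0.21, SE 0.09; limma adjusted p 0.091).

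NRF2 targets, the antioxidant and detoxification genes, favoured AsPC1-R. Of 25 measured 20 were higher in AsPC1-R and 1 in BxPC3-R, with a median of 0.74, against 5 and 11 and a median of -0.14 between the parental lines, and the change was called upward for 21 and downward for 0. Over all genes 21.3% were higher in AsPC1-R and 22% in BxPC3-R, and the change was called upward for 14.1% and downward for 11.3%. AKR1C2, an aldo-keto reductase of steroids and aldehydes, read 11.21, 11.16 and 11.33 in AsPC1-R and 8.39, 8.42 and 8.45 in BxPC3-R (2.81, SE 0.15; parental -0.68). AKR1C1 and AKR1C3 differed by 2.46 (0.13) and 2.65 (0.14). These genes are close copies, and a second AKR1C1 probe set gave -0.31. TXNRD1, thioredoxin reductase, read 11.80, 11.98 and 11.80 against 9.90, 9.91 and 9.95 (1.94, SE 0.08; parental 0.86).

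Metallothioneins, which bind zinc, copper and platinum, kept the parental order. Of 10 measured, 9 were higher in BxPC3-R and 9 in BxPC3, and limma called 0 changes of the difference, with 1 gene at an unadjusted p under 0.05. MT2A read 9.19, 9.19 and 9.32 against 11.50, 11.32 and 11.40, and its 3 probe sets gave -2.17, -4.13 and -2.01. Between the parental lines the same probe sets gave -2.08, -3.09 and -2.06, and only the first of them was tested. Of 24 Fanconi and recombination genes 15 were higher in BxPC3-R and 1 in AsPC1-R, with a median of -0.39 (parental 10 and 3, -0.19). FANCM, a helicase of that pathway, differed by -1.60 (0.09), and ERCC1, a nuclease partner of excision repair, by -0.70 (0.12). Of 18 nucleotide excision repair genes 2 were higher in AsPC1-R and 6 in BxPC3-R, counts too small to set apart from the 21.3% and 22% of all genes.

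**Figure D5:**
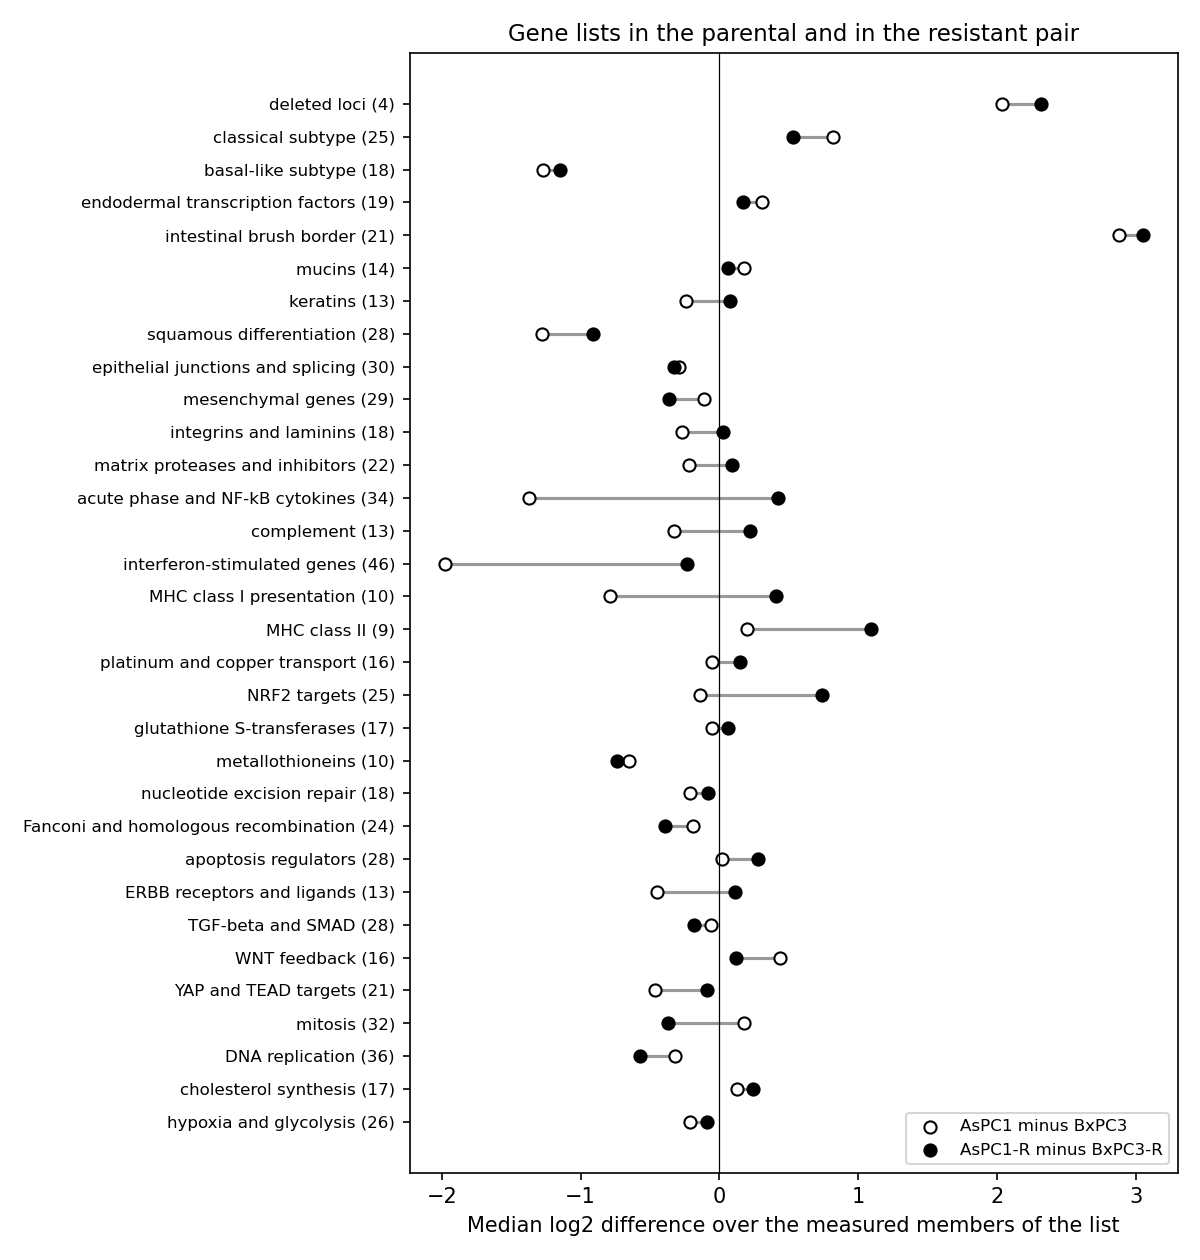
Median log2 line difference over the measured members of each gene list (number in parentheses) between the parental lines (open circles) and between the resistant lines (filled circles). The NF-kB list moves from -1.37 to 0.42 and the interferon list from -1.98 to -0.23, while brush border (2.88 to 3.05), basal-like (-1.27 to -1.15) and metallothioneins stay on their side.

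The counts of the remaining lists are given as a description, and several lie near the shares of all genes, which were 21.3% higher in AsPC1-R and 22% in BxPC3-R, and 27.7% higher in AsPC1 and 22.9% in BxPC3. WNT feedback genes lost part of the AsPC1 excess, with 4 of 16 higher in AsPC1-R and 2 in BxPC3-R, from 10 and 1, and a median of 0.12 from 0.44. In the same order, higher in AsPC1-R and then in BxPC3-R, YAP and TEAD targets stood at 5 and 8 of 21 (parental 2 and 13), ERBB receptors and ligands at 5 and 2 of 13 (3 and 7), TGF-beta and SMAD genes at 8 and 14 of 28 (9 and 11), and integrins and laminins at 6 and 6 of 18 (6 and 10). Matrix proteases and inhibitors stood at 9 and 7 of 22 (6 and 10), mucins at 6 and 3 of 14 (6 and 5), keratins at 6 and 5 of 13 (4 and 6), or 5 and 5 with arrays centred, and epithelial junction genes at 9 and 16 of 30 (8 and 16). Glutathione S-transferases stood at 7 and 4 of 17 (5 and 3), cholesterol synthesis at 9 and 1 of 17 (6 and 3), and hypoxia and glycolysis genes at 6 and 9 of 26 (6 and 13).

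Both derivatives read high for some markers of epithelial cells, while others, described above, were far lower in AsPC1-R (GRHL2, RAB25 and KRT7). EPCAM, the epithelial adhesion molecule, read 13.05, 13.17 and 12.96 in AsPC1-R and 12.35, 12.51 and 12.47 in BxPC3-R, and KRT19, a ductal keratin, 11.21 to 11.57 against 10.72 to 10.97. Of 10 ductal markers 7 were higher in AsPC1-R and 2 in BxPC3-R. PTPRC, the pan-leukocyte phosphatase CD45, read 3.13 to 3.26 on all 6 arrays. Medians over the leukocyte, endothelial and fibroblast marker lists lay between 5.46 and 6.27 on these arrays. Of 10 leukocyte markers 3 were higher in AsPC1-R, among them CD68, a lysosomal protein that is not restricted to macrophages, by 2.30 (0.09), of 9 endothelial markers 1 was higher in AsPC1-R and 2 in BxPC3-R, and of 10 fibroblast markers 2 and 2. LUM, the matrix proteoglycan lumican, was the fibroblast marker with the largest difference, at 10.60, 10.61 and 10.33 against 6.39, 6.30 and 6.64 (4.07, SE 0.22; parental 6.63). Acinar markers stood at 0 and 2 of 7 and endocrine markers at 1 and 0 of 5. Over all genes 21.3% were higher in AsPC1-R and 22% in BxPC3-R. Apart from the ductal list, these counts are too small to set apart from those shares. Cells of other types were not counted, and their part in the differences was not tested.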

How the data were processed

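Total RNA of 4 groups of 3 samples was amplified, labelled with biotin and hybridized to Affymetrix arrays, per the labels' protocols. The authors deposited log2 expression values per probe set, made with Affymetrix Expression Console and RMA per the submitters' processing notes; RMA corrects background, quantile-normalizes and summarises probes. The build, annotation release and software versions were not given in the sources used here. The values hold no measure of depth; precision is set by the number of arrays.

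Of 33297 probe sets, the 19460 with 1 gene symbol were used (1754 had several, 12083 were not listed), with the brightest probe set over all arrays for the 769 genes that had several. This left 18417 genes, of which 18389 were found in RefSeq (GRCh38.p14). No filter on low values was applied. All 12 arrays were fitted with limma 3.58.1 in R 4.3.3 (lmFit and eBayes, a mean per group, 8 residual and 5.47 prior degrees of freedom), and AsPC1-R minus BxPC3-R, AsPC1 minus BxPC3 and the first minus the second were tested two-sided with Benjamini-Hochberg adjustment over all genes. The pipeline was tested on simulated data. The lists, members and classes were chosen with earlier results of these data known. The text names genes with the largest differences in each class and direction and up to 4 called members per list, with the platinum transport and marker genes; MIR21 and the histone count were chosen after the values were seen. Promoter and microRNA sequences are from RefSeq (GRCh38.p14); SAA1 and SAA2 windows were not used here. Alternatives changed the normalization, centring, filter, prior, probe set rule, threshold, arrays and the limits of the classes.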

Additional observations from a re-analysis of the deposited data

Results flagged for a closer look

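Of the 120 genes named in the report, 87 had a called change of the line difference in limma, 62 toward AsPC1-R and 25 toward BxPC3-R. Over all genes that change was called for 25.4%, 14.1% toward AsPC1-R and 11.3% toward BxPC3-R. Many genes were named from classes that require a called change, so these counts follow from the choice of genes and describe only them. The values are log2 changes, the resistant difference minus the parental one, with 3 arrays per group.

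Among genes that turned toward AsPC1-R the change was 10.32 for SAA2, 8.83 for SAA1, 7.12 for CXCL5, 6.93 for CCL20, 5.91 for DUOX2, 4.23 for CA2 and 4.05 for APOBEC3G. In the same class it was 4.02 for FRAS1, 3.99 for VSNL1, 3.95 for CFB and 2.43 for PSMB9. Among those that turned toward BxPC3-R it was -3.96 for SYTL5 and -2.32 for PKIB. Among vanished differences that had favoured BxPC3 the change was 6.84 for C3, 5.74 for SLC6A14, 5.68 for SLFN5, 5.24 for ZC3H12C, 4.60 for AKR1B10, 4.32 for IDO1, 4.04 for IFI27 and 3.87 for SLC39A8. Among those that had favoured AsPC1 it was -3.40 for FABP4, -2.74 for HPGD, -2.57 for CYP2B6 and -1.52 for ERBB3.

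Among appeared differences that favoured AsPC1-R the change was 5.35 for NRCAM, 3.95 for PDZK1IP1, 3.24 for MAP2K6, 3.09 for PLAT, 2.92 for IL20RB, 2.89 for TMOD1 and 2.86 for GRK3. In the same class it was 2.76 for C4BPA, 2.10 for CFLAR, 1.98 for GBP2, 1.95 for MIR21, 1.83 for CFI, 1.69 for HLA-DPB1 and 1.60 for CASP10. Among those that favoured BxPC3-R it was -2.52 for TMEM117, -2.38 for RERG, -1.98 for H1-5, -1.97 for H2BC14, -1.84 for MBNL3, -1.01 for POLA1 and -0.68 for DLGAP5. Among wider differences of the AsPC1 type it was 3.98 for VNN1, 2.97 for MGAT4A, 2.73 for GCNT3, 1.44 for HLA-DMA, 0.99 for LAMA4, 0.70 for CDKN2A, 0.64 for ANPEP and 0.56 for ABCC2. Among wider differences of the BxPC3 type it was -2.91 for CDH6, -2.63 for EYA1, -2.02 for LPCAT2, -1.44 for SOX2, -1.27 for KRT13, -0.74 for LDHB, -0.69 for ANXA10 and -0.58 for KRT5. For CDKN2A, which BxPC3 cells lack, AsPC1-R stood at 0.23 against AsPC1 and BxPC3-R at -0.47 against BxPC3. The part of background signal in the CDKN2A change was not tested.

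Among narrower differences of the BxPC3 type the change was 4.78 for CXCL10, 4.15 for SCEL, 4.10 for FSTL1, 3.50 for MID1, 3.43 for CXCL11, 2.64 for TRIM22 and 2.51 for IFI44L. In the same class it was 1.21 for SLFN11, 1.16 for ERAP2, 0.99 for ABCC4, 0.98 for MX2, 0.89 for NRG1 and 0.65 for PTGS2. Among narrower differences of the AsPC1 type it was -2.56 for LUM and -0.92 for NR5A2. Among genes in between the classes it was 5.33 for HLA-DPA1, 3.49 for AKR1C2, 3.16 for AKR1C1, 1.76 for AKR1C3, 1.64 for ABCC3, 1.44 for CD68, 1.08 for TXNRD1 and -0.88 for FANCM. Among genes under 2-fold in both pairs it was -0.73 for CDC20 and 0.65 for ATP7B.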

How the results depend on the processing

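With each array left out in turn, 7138 to 7312 genes were called between the resistant lines (48.3% to 49.7% higher in AsPC1-R) and 1917 to 1955 at least 2-fold. Between the parental lines it was 7729, without BxPC3 replicate 2, to 9899 (50.6% to 57.3% higher in AsPC1) and 2015 to 2088. For the change of the line difference it was 3961 to 5296 (52.4% to 57.2% toward AsPC1-R) and 1152 to 1224. Kept differences numbered 1165 to 1195 (181 to 228 wider, 300 to 345 narrower), vanished 345 to 390, appeared 298 to 330 and turned 42 to 48.

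Arrays centred on their medians put 44.4% of the called changes toward AsPC1-R in place of 55.4% and moved the median change over all genes from -0.07 to -0.13. An adjusted p under 0.01 left 2998 changes. With a limit of 0.3, 218 differences vanished and 168 appeared, and with an adjusted p of 0.05 or more in place of a size limit 219 and 167. Over the alternatives other than the threshold and the class limits 3714 values were recomputed for the named genes: 3663 kept direction and call, 27 lost the call, 24 gained it and 0 reversed. Calls were lost for the resistant difference of SLFN5 and for the changes of ABCC2, KRT5 and ANXA10. At an adjusted p under 0.01 the changes of CDKN2A, LDHB and NRG1 lost theirs too.

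Replicate numbers were shared by the labels of all groups, but the deviations of AsPC1-R and BxPC3-R arrays of the same number correlated at -0.05, -0.02 and -0.23. No pairing by number was seen, but these values cannot show whether arrays of the same number were handled together. With the number as a block 7855 genes were called between the resistant lines, 9184 between the parental lines and 4525 for the change, and 1175 differences were kept, 366 vanished, 310 appeared and 45 turned.

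Differences whose lower side reads near 5.75, the level of the deleted CDKN2A in BxPC3-R, or below it are uncertain in size. The level of a deleted gene differs between probe sets, and SMAD4 read lower than CDKN2A in BxPC3-R. Signal over background was not measured.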
